A study of Mus musculus with 2 samples.

Results

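The 10 genes described here encode the synaptotagmin-like proteins Sytl1, Sytl2, Sytl3, Sytl4 and Sytl5, the GTPases Rab27a, Rab27b and Rab3d, and the priming factors Unc13b and Unc13d. They were taken by symbol from the 32287 genes of the count tables, and all 10 symbols were found in both libraries. Both libraries hold single cells of parathyroid glands that mouse embryonic stem cells (ESCs) had formed in a host. The hosts were Gcm2-/- mice on a BDF1B6 background, complemented with ESCs that carry a Pth-tdTomato reporter, and Gcm2 is a transcription factor on which the gland depends. For replicate 1, 3 mice of 9 to 12 weeks were pooled, whose blood was 50 to 70% chimeric. For replicate 2, 5 mice of 6 to 13 weeks were pooled, at 60 to 70%. Each pool mixed males and females. The study has no other group, so the genes were compared between cell types within the glands and between the pools. The blood and stroma of such a chimera can come from host and from ESCs, so that cell type and genetic origin cannot be told apart.

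Rab27 GTPases sit on secretory granules and recruit effectors that move, tether and prime the granules at the plasma membrane. The synaptotagmin-like proteins bind the active form of Rab27 at one end and membrane lipids or SNARE partners through their C2 domains at the other. Sytl4 (granuphilin) is known from the dense-core granules of endocrine cells such as pancreatic beta cells, and Rab27a and Unc13d from the lytic granules of cytotoxic lymphocytes. Parathyroid chief cells store parathyroid hormone in dense-core granules.

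A barcode was called parathyroid where the hormone transcript Pth made up at least 5% of its UMIs, and was put among the other cell types where Pth was under 1%. The barcodes kept were 1240 in replicate 1 and 3313 in replicate 2, of which 660 and 2237 were parathyroid, with medians of 37730 and 30583 UMIs. The other barcodes were clustered without the 10 genes, and clusters were named from marker genes, with the ending "like" for a name that rests on them. They gave 683 fibroblast-like, 376 endothelial-like, 210 macrophage-like, 94 dendritic-cell-like and 87 T-cell-like barcodes, which were the types with at least 20 barcodes in each library. The T-cell-like cluster had Trdc, Il23r and Il17a among its leading genes, with Trdc at 1835 and 1970 CPM. Gzma was at 0 there in both libraries and Prf1 at 0 and 2.20 CPM, and T-cell-like levels are not read as those of cytotoxic T cells. Smaller types were 48 barcodes like type 2 innate lymphoid cells (ILC2-like), 37 neutrophil-like, 32 pericyte-like and 8 lymphatic endothelial-like barcodes, and a cluster of 31 barcodes with NK and T cell markers. All 5 parathyroid markers were at 20 CPM or more in parathyroid barcodes of both libraries. Gcm2, the gene the hosts lacked, was at 157 and 159 CPM there. The deleted part of Gcm2 is not described, so that a 3' tag may lie outside it and check nothing. The libraries shared 3 barcode sequences, of which 1 and 2 were parathyroid. Levels (CPM) divide a gene's UMIs by all UMIs of its class and library, with exact Poisson intervals at 95% that cover counting error only. The 3' UMIs count molecules and carry no length term, and levels of different genes are set side by side on the CPM scale. Whether different genes were captured alike was not tested, so that paralogue shares are shares of UMIs.

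Each parathyroid-against-type comparison used UMIs summed per type and library and edgeR's quasi-likelihood test with library as a block, with Benjamini-Hochberg adjustment over 13308 genes. Sytl2 and Sytl5 had too few counts to enter, and 8 of the 10 genes were tested. Against fibroblast-like barcodes 5 of the 8 were called higher and 2 lower, where 29.4% of all genes were called higher and 29.4% lower. Against endothelial-like barcodes 4 were higher and 1 lower (all genes: 28.6% and 25.4%). Against macrophage-like barcodes 6 were higher and 2 lower (30.5% and 29.3%). Against dendritic-cell-like barcodes 5 were higher and 1 lower (31.6% and 24.5%), and against T-cell-like barcodes 2 were higher and 4 lower (28.2% and 17.6%). Sytl4 and Unc13b were higher in parathyroid barcodes in all 5 comparisons. Unc13d and Rab3d were higher in none of them.

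**Figure D1:**
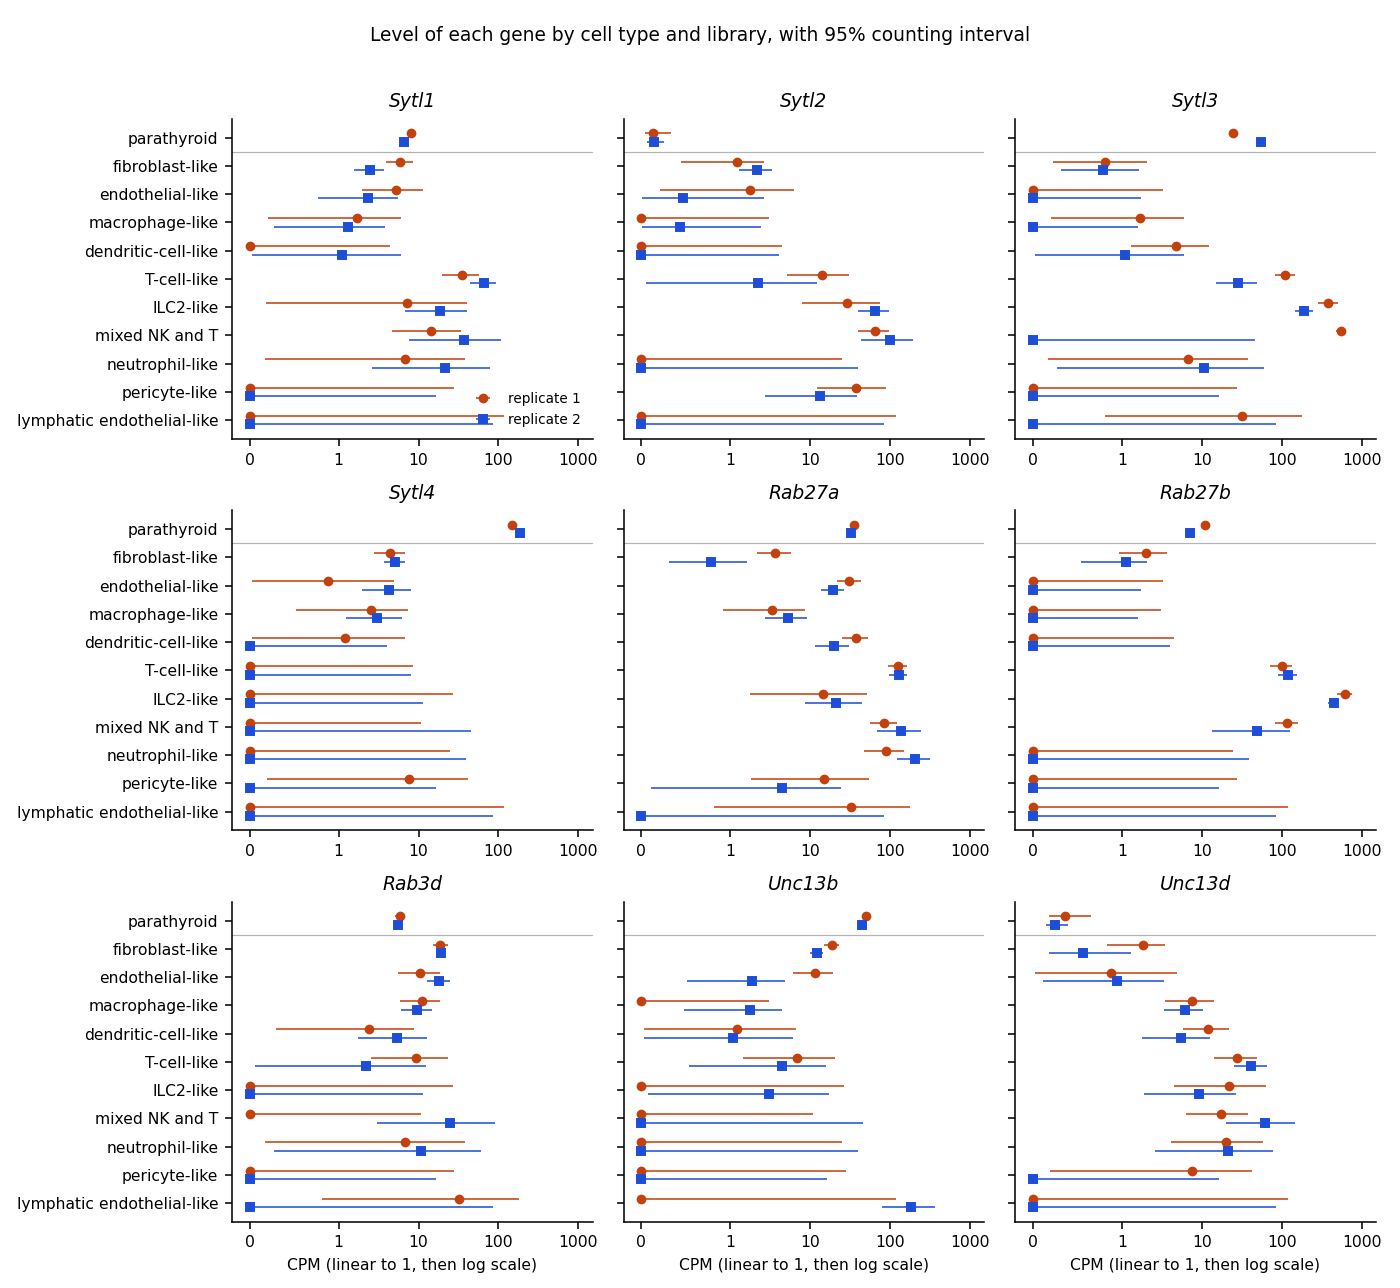
Level of 9 of the 10 genes (CPM, linear to 1 and then on a log scale) in each cell type, parathyroid on top, with 1 point per library and lines for the 95% counting interval. Sytl5 is not drawn because no type had a mean above 0.730 CPM. Sytl4 stands out in parathyroid barcodes, Rab27b in ILC2-like barcodes, and Rab27a in neutrophil-like, T-cell-like and mixed NK and T barcodes.

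Sytl4 was the synaptotagmin-like gene of parathyroid barcodes. Of all UMIs of the 5 Sytl genes in these barcodes it held 81.6% in replicate 1 (95% exact binomial interval 80.5 to 82.6, of 5465 UMIs) and 75.1% in replicate 2 (74.5 to 75.7, of 17760). Sytl3 held 13.8% and 22.1%, and Sytl1 4.48% and 2.66%. Sytl2 had 4 and 10 UMIs and Sytl5 7 and 9 UMIs, each under 0.2% of the family in both libraries. Fibroblast-like barcodes had a spread of paralogues at low level, with Sytl1 at 43.9% and 22.7% and Sytl4 at 33.3% and 46.4% of 66 and 97 UMIs. In T-cell-like barcodes Sytl3 held 69.6% of 69 UMIs in replicate 1 and 29.5% of 44 in replicate 2, and Sytl1 held 21.7% and 68.2%. The leading paralogue of that class thus differed between the libraries. In ILC2-like barcodes Sytl3 led in both, with 91.4% of 58 and 70.0% of 90 UMIs, and Sytl2 took 6.90% and 23.3%.

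**Figure D2:**
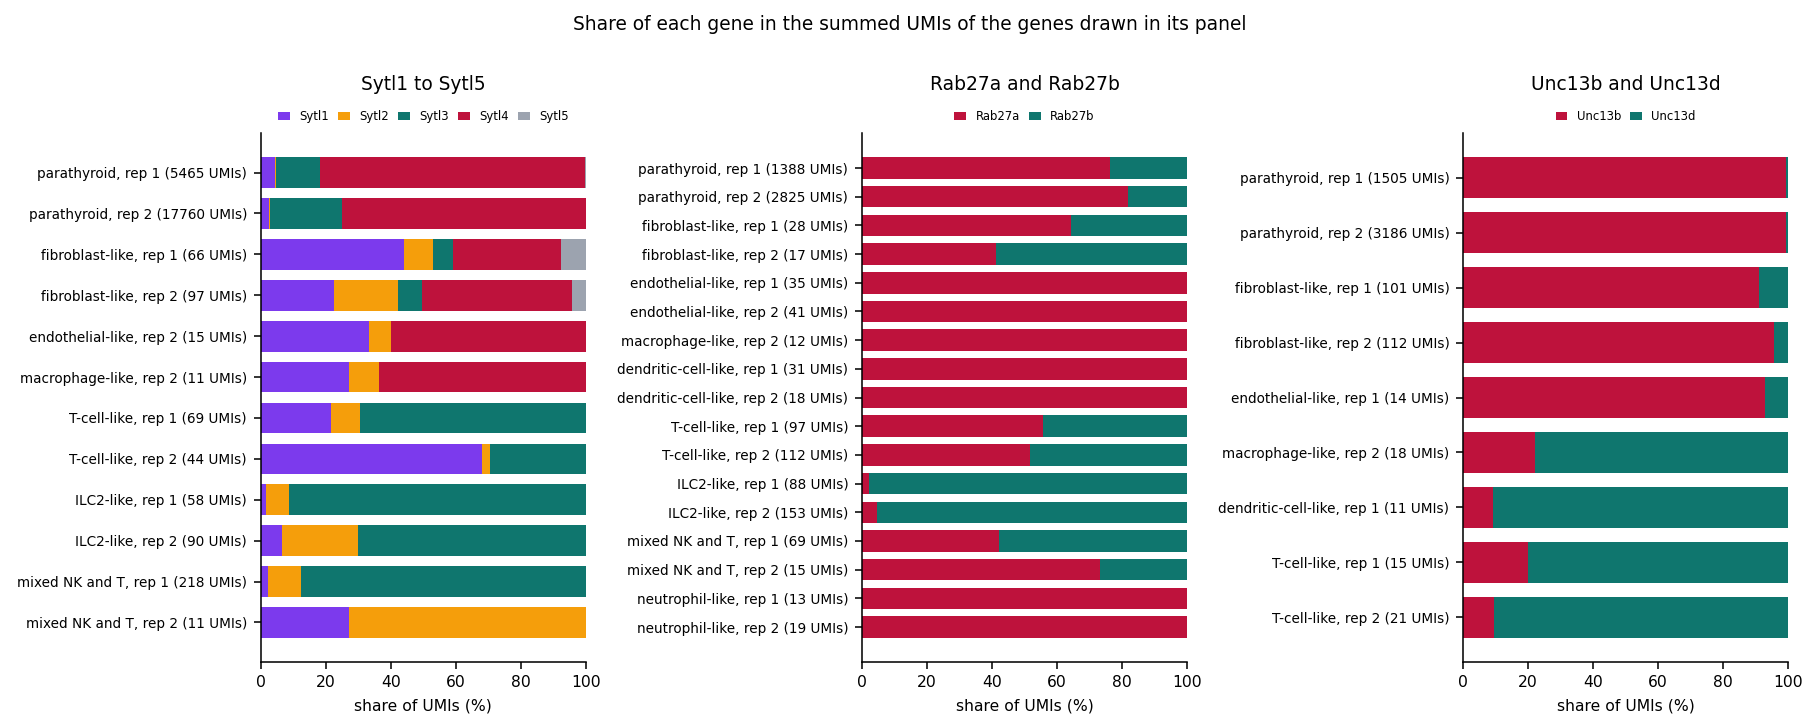
Share of each paralogue (%) in the summed UMIs of Sytl1 to Sytl5 (left), of Rab27a and Rab27b (middle) and of Unc13b and Unc13d (right), by cell type and library, parathyroid on top. Other Unc13 genes are not counted in the right panel. Only classes with at least 10 such UMIs in a library are drawn, with that number beside the name. Sytl4 fills most of the Sytl bar in parathyroid barcodes and Sytl3 most of it in ILC2-like barcodes.

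Sytl4 (ENSMUSG00000031255, chromosome X, 133936385 to 133981812, minus strand, GRCm38) reached 147 CPM in replicate 1 (143 to 152) and 187 CPM in replicate 2 (183 to 190) in parathyroid barcodes, a mean of 167 ± 27.9 CPM (SD, n = 2). A Sytl4 UMI was present in 90.9% and 94.4% of these barcodes, against 0.943% and 2.59% of endothelial-like barcodes, whose median depth was 10250 and 7589 UMIs. At 5000 UMIs per barcode the shares were 46.7% and 57.5% in parathyroid and 0% and 1.21% in endothelial-like barcodes. Fibroblast-like barcodes were next by their mean, with 4.45 and 5.05 CPM, and the values of both types were far apart. The log2 fold change of parathyroid over fibroblast-like barcodes was 5.22 (SE 0.26, edgeR adjusted p = 3.40e-08). Macrophage-like barcodes had 2.52 and 3.06 CPM, endothelial-like 0.881 and 4.24 CPM, and dendritic-cell-like 1.20 and 0 CPM, the last from 1 UMI in all. The log2 fold changes against these types were 5.82 (SE 0.35), 6.08 (SE 0.34) and 8.16 (SE 0.52), with adjusted p-values of 9.25e-08, 6.97e-08 and 2.14e-07 by the same test. Pericyte-like barcodes held 1 Sytl4 UMI in all (7.53 and 0 CPM). None was found in T-cell-like, ILC2-like, neutrophil-like, lymphatic endothelial-like or mixed NK and T barcodes of either library. Set against a floor of 3 counts over both libraries, Sytl4 was at least 51.7-fold higher in parathyroid than in T-cell-like barcodes (edgeR adjusted p = 7.18e-07) and at least 27.2-fold higher than in ILC2-like barcodes.

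Free parathyroid RNA in droplets can carry Sytl4 UMIs into other types, and Pth gives its size. At the ratio of Sytl4 to Pth seen in parathyroid barcodes, the Pth UMIs of endothelial-like barcodes would bring 7.08 Sytl4 UMIs, and 10 were counted (ratio 1.41, 95% interval 0.677 to 2.60). Macrophage-like barcodes had 10 against 7.05 (ratio 1.42, 0.680 to 2.61). Both intervals include 1, and these UMIs are not read as expression. Fibroblast-like barcodes had 67 Sytl4 UMIs against 20.1, a ratio of 3.33 (2.58 to 4.23), which is above it.

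Sytl3 (ENSMUSG00000041831, chromosome 17, 6659093 to 6738044, plus strand) was the second Sytl gene of parathyroid barcodes and the leading one of ILC2-like barcodes in both libraries. Sytl3 has been described in human cytotoxic T cells, where it links lytic granules to a kinesin motor. Parathyroid barcodes had 24.8 CPM in replicate 1 (23.1 to 26.7) and 55.0 CPM in replicate 2 (53.3 to 56.7). ILC2-like barcodes had 382 CPM (286 to 500) and 192 CPM (148 to 246), and no parathyroid value reached theirs. T-cell-like barcodes had 111 CPM (81.9 to 147) and 28.6 CPM (15.2 to 48.9), a range that overlapped the parathyroid values. The test against T-cell-like barcodes gave no call (log2 fold change -0.46, SE 0.57, edgeR adjusted p = 0.556). Against ILC2-like barcodes, a type added after the data were seen, parathyroid barcodes were lower (log2 fold change -2.46, SE 0.66, adjusted p = 0.00782 by edgeR over 11514 genes). In that fit 2 of 9 tested members were called higher than in ILC2-like barcodes and 4 lower, where 18.3% of all genes were higher and 18.1% lower. Against the mixed NK and T cluster, 2 were higher and 4 lower (all genes: 19.6% and 16.2%). Against neutrophil-like barcodes 2 were higher and 2 lower (26.8% and 16.4%), and against pericyte-like barcodes 3 were higher and 1 lower (15.1% and 15.4%).

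The other large types had little Sytl3. Fibroblast-like barcodes had 0.808 and 0.786 CPM, macrophage-like 1.68 and 0 CPM, and dendritic-cell-like 4.81 and 1.09 CPM. Parathyroid barcodes were higher than these types, with log2 fold changes of 5.71 (SE 0.71), 5.99 (SE 1.07) and 3.77 (SE 0.95) and edgeR adjusted p-values of 3.39e-05, 0.000576 and 0.00595. Endothelial-like barcodes had no Sytl3 UMI, and parathyroid barcodes were at least 50.0-fold higher at a floor of 3 counts. Pericyte-like barcodes also had none, at a bound of at least 5.50-fold. Carry-over from parathyroid barcodes would give T-cell-like barcodes 0.485 Sytl3 UMIs, against 61 counted, and ILC2-like barcodes 0.241, against 116 counted.

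In the mixed cluster of NK and T markers, Sytl3 was at 554 CPM (478 to 639) in 24 barcodes of replicate 1 and at 0 in 7 barcodes of replicate 2, where 3 counts would be 37.3 CPM. The call that parathyroid barcodes were lower (log2 fold change -2.45, SE 0.71, edgeR adjusted p = 0.0131) rests on replicate 1. The barcodes of this cluster differed in markers between the libraries. All 7 NK markers had UMIs in replicate 1, with a sum of 1767 CPM. In replicate 2 only 2 of the 7 had any, with a sum of 37.3 CPM, and Ncr1, Klra8, Eomes, Gzma and Prf1 were at 0. T cell markers summed to 1100 CPM in replicate 1 and 2808 CPM in replicate 2. The part of this difference in the Sytl3 value was not tested. The ILC2-like barcodes of replicate 2 also carried all 7 endothelial markers, at a sum of 1488 CPM, against 1 of 7 and 216 CPM in replicate 1. A Sytl3 UMI was found in 22 of 35 ILC2-like barcodes of replicate 2, against 13 of 13 in replicate 1.

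Sytl1, which binds Rab27 and is known from secretory epithelia and neutrophils, was low in parathyroid barcodes, at 8.09 and 6.60 CPM. T-cell-like barcodes had 34.7 and 66.0 CPM, above both parathyroid values, and the log2 fold change was -2.44 (SE 0.44, edgeR adjusted p = 0.000800). Parathyroid barcodes were higher than macrophage-like barcodes, which had 1.68 and 1.31 CPM (log2 fold change 2.21, SE 0.70, adjusted p = 0.0164). They were also higher than dendritic-cell-like barcodes, which held 1 Sytl1 UMI in all (adjusted p = 0.0155). Against fibroblast-like barcodes, at 5.86 and 2.47 CPM, the adjusted p was 0.0538, and against endothelial-like barcodes, at 5.29 and 2.36 CPM, it was 0.0731.

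Sytl2, which links Rab27 to phosphatidylserine in the plasma membrane, was nearly absent from parathyroid barcodes, at 0.132 and 0.140 CPM. Mixed NK and T barcodes had 63.8 and 99.4 CPM, ILC2-like 28.8 and 64.0 CPM, and pericyte-like 37.6 and 13.3 CPM. ILC2-like values overlapped those of both other types, and mixed NK and T values lay above pericyte-like ones. In the fit with the small types, parathyroid barcodes were lower than mixed NK and T barcodes (log2 fold change -8.54, SE 0.81, edgeR adjusted p = 4.97e-07). They were also lower than ILC2-like barcodes (-8.18, SE 0.82, adjusted p = 7.71e-07) and pericyte-like barcodes (-6.76, SE 1.1, adjusted p = 0.000176). The pericyte-like value rests on 8 UMIs. Sytl5 had 16 UMIs in parathyroid and 9 in fibroblast-like barcodes and none in any other named type.

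Of the members, Sytl4, Unc13b and Sytl3 had the highest mean levels in parathyroid barcodes, at 167, 46.8 and 39.9 CPM. Rab27a followed at 33.6 CPM and was above Sytl3 in replicate 1. The windows around the annotated starts of Sytl4, Sytl3 and Unc13b are shown. Each runs 5′ to 3′ on the gene's strand, from 250 bases before to 50 bases after the start, from RefSeq on GRCm38.p6. The windows are chrX:133981763-133982062 (minus strand) for Sytl4, chr17:6658809-6659108 (plus strand) for Sytl3 and chr4:43058703-43059002 (plus strand) for Unc13b. Capitals mark the single match among the motifs searched.
Sytl4: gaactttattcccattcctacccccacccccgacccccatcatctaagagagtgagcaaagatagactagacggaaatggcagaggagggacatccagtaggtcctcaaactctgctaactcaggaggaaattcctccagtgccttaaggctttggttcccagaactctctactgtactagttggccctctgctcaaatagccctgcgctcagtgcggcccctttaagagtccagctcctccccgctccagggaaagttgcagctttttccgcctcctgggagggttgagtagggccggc
Sytl3: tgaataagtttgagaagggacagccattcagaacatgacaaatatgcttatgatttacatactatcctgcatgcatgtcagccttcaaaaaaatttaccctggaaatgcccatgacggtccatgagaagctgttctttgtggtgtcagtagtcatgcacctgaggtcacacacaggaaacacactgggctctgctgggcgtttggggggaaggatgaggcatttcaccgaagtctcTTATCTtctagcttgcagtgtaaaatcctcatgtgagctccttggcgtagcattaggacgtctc
Unc13b: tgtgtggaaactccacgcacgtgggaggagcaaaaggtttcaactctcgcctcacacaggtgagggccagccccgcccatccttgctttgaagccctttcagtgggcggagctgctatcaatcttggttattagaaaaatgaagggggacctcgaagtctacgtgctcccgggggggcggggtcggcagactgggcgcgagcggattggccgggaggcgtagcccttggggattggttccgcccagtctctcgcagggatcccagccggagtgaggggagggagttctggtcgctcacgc
The letters searched on both strands were ATGCGGGT for GCM factors, AGATAA for GATA factors, TGACGTCA for the cyclic AMP response element and TATAAA for the TATA box. No motif contains another. The shares with each motif, in that order, were 0.256%, 11.2%, 1.79% and 13.6% of 32851 promoters of the same length. Among the windows of the 7 genes with an entry, the only match was AGATAA in Sytl3, read on the minus strand from 14 bases before the start. The start used for the Sytl3 window lies upstream of the gene start given above. The Sytl4 window had 54.7% G and C with 7 CpG, the Sytl3 window 46.0% with 5, and the Unc13b window 62.0% with 20, where the medians of all promoters were 52.7% and 7. A match describes letters and not a bound site.

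Rab27a (ENSMUSG00000032202, chromosome 9, 73044854 to 73097629, plus strand) was the main Rab27 paralogue of parathyroid barcodes. It held 76.2% (73.9 to 78.4) of 1388 Rab27 UMIs in replicate 1 and 81.8% (80.3 to 83.2) of 2825 in replicate 2. Its level was 34.9 and 32.3 CPM in parathyroid barcodes. Fibroblast-like barcodes had 3.64 and 0.786 CPM and macrophage-like barcodes 3.36 and 5.24 CPM, below both parathyroid values. The log2 fold changes were 4.23 (SE 0.38, edgeR adjusted p = 1.39e-06) and 2.75 (SE 0.45, adjusted p = 0.000206). T-cell-like barcodes had 125 and 128 CPM, and parathyroid barcodes were lower (log2 fold change -1.53, SE 0.31, adjusted p = 0.00180). Dendritic-cell-like barcodes had 37.3 and 19.6 CPM and endothelial-like 30.8 and 19.3 CPM. Neither comparison passed, with adjusted p-values of 0.557 and 0.0779. Neutrophil-like barcodes were at 87.7 and 203 CPM and mixed NK and T barcodes at 84.1 and 137 CPM. The test gave a call against neutrophil-like barcodes (log2 fold change -1.92, SE 0.48, adjusted p = 0.00358) and none against mixed NK and T barcodes (-1.11, SE 0.45, adjusted p = 0.0615).

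Rab27b, the paralogue known from platelet and mast cell granules, was at 10.9 and 7.19 CPM in parathyroid barcodes. ILC2-like barcodes had 620 and 445 CPM, where Rab27b took 97.7% and 95.4% of Rab27 UMIs. T-cell-like barcodes had 99.5 and 119 CPM, where both paralogues were near equal, with Rab27a at 55.7% and 51.8% of UMIs. Parathyroid barcodes were lower than T-cell-like barcodes (log2 fold change -3.26, SE 0.33, edgeR adjusted p = 4.74e-05) and lower than ILC2-like barcodes (log2 fold change -5.76, SE 0.29, adjusted p = 4.27e-09). Fibroblast-like barcodes had 2.02 and 1.12 CPM, and parathyroid barcodes were higher (log2 fold change 2.64, SE 0.40, adjusted p = 0.000337). No Rab27b UMI was found in endothelial-like, macrophage-like or dendritic-cell-like barcodes. At a floor of 3 counts parathyroid barcodes were at least 9.00-fold, 9.62-fold and 4.84-fold higher than these types. Neutrophil-like barcodes had Rab27a but no Rab27b UMI, and at their depth a level like that of parathyroid barcodes was not detectable.

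Rab3d, a GTPase of exocrine and mast cell granules, was at 5.84 and 5.55 CPM in parathyroid barcodes. Fibroblast-like barcodes had 18.8 and 19.1 CPM and endothelial-like 10.6 and 17.9 CPM, above both parathyroid values. Macrophage-like barcodes had 10.9 and 9.60 CPM. Parathyroid barcodes were lower than all 3 types, with log2 fold changes of -1.65 (SE 0.26), -1.13 (SE 0.33) and -0.91 (SE 0.36) and edgeR adjusted p-values of 0.000158, 0.0112 and 0.0431.

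Unc13b (ENSMUSG00000028456, chromosome 4, 43058953 to 43264871, plus strand) encodes a Munc13 protein that primes vesicles for fusion. It held 99.3% of the Unc13b and Unc13d UMIs of parathyroid barcodes in replicate 1 (1494 of 1505) and 99.4% in replicate 2 (3168 of 3186). Unc13a is not a member and was not counted in these shares. It was at 6.03 ± 0.897 CPM in parathyroid barcodes (mean and SD of the libraries), above Unc13d. The Unc13b level was 49.3 and 44.3 CPM, and a UMI was found in 70.3% and 62.5% of barcodes, against 4.72% and 1.48% of endothelial-like barcodes. Fibroblast-like barcodes had 18.6 and 12.0 CPM, and the log2 fold change was 1.74 (SE 0.29, edgeR adjusted p = 0.000260). Endothelial-like barcodes had 11.5 and 1.88 CPM and T-cell-like barcodes 6.94 and 4.40 CPM, with log2 fold changes of 3.35 (SE 0.44, adjusted p = 3.85e-05) and 3.44 (SE 0.63, adjusted p = 0.000813). Macrophage-like barcodes had 4 and dendritic-cell-like 2 Unc13b UMIs in all, and parathyroid barcodes were higher than both (adjusted p = 1.04e-05 and 5.93e-05). The highest value in the data was 183 CPM in lymphatic endothelial-like barcodes of replicate 2. It rests on 8 UMIs in 3 of 5 barcodes, and replicate 1 had none in 3 barcodes.

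Unc13d, the priming factor that binds Rab27 directly and is needed for lytic granule release, showed the opposite pattern. Parathyroid barcodes had 0.363 and 0.252 CPM, from 11 and 18 UMIs. T-cell-like barcodes had 27.8 and 41.8 CPM, mixed NK and T barcodes 17.4 and 62.1 CPM, and neutrophil-like barcodes 20.2 and 21.4 CPM. Parathyroid barcodes were lower than T-cell-like (log2 fold change -6.45, SE 0.62, edgeR adjusted p = 4.73e-06), dendritic-cell-like (-4.77, SE 0.70, adjusted p = 0.000110) and macrophage-like barcodes (-4.53, SE 0.62, adjusted p = 5.41e-05). The call against fibroblast-like barcodes, which had 1.82 and 0.562 CPM, was close to the threshold (adjusted p = 0.0401). Against endothelial-like barcodes, with 3 Unc13d UMIs in all, no call was made (adjusted p = 0.308). In macrophage-like, dendritic-cell-like and T-cell-like barcodes Unc13d held from 77.8% to 100% of the UMIs of the pair, against under 1% in parathyroid barcodes. The shares of these 3 types rest on 6 to 21 UMIs per library, against 1505 and 3186 in parathyroid barcodes.

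**Figure D3:**
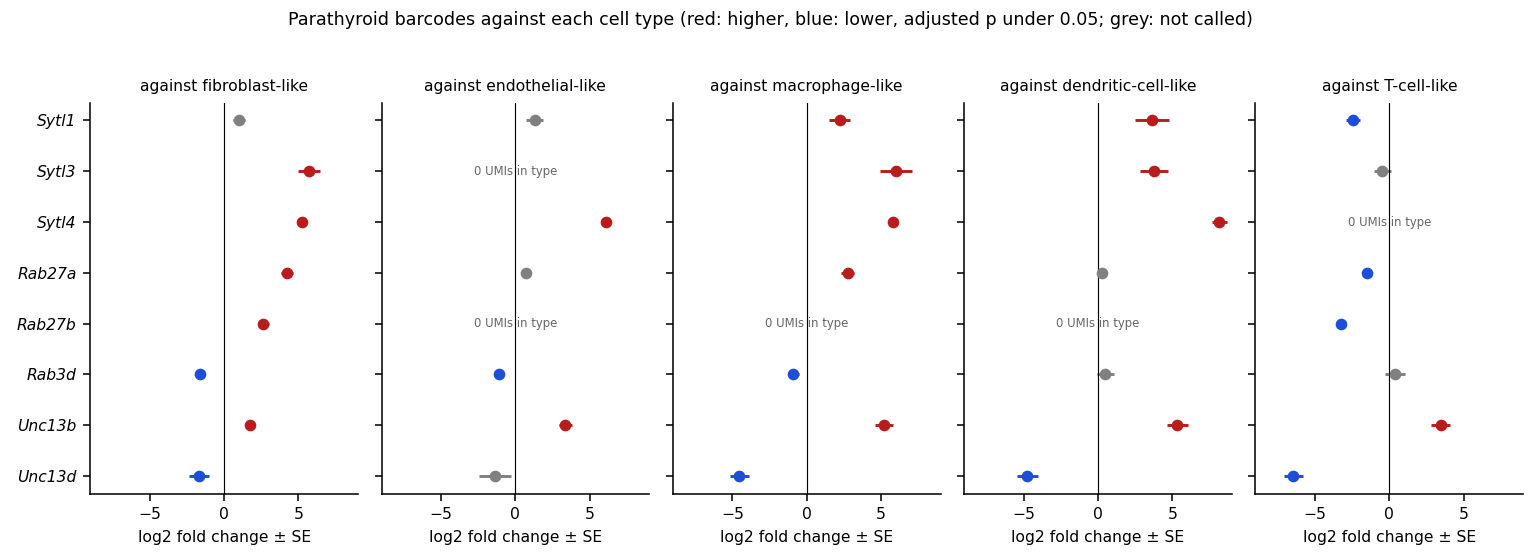
Log2 fold change of parathyroid barcodes over each of the 5 large types (points, with SE as lines) for the 8 tested genes. Red points were called higher, blue points lower and grey points not called at an adjusted p of 0.05, and types without a UMI of the gene carry no point. Sytl4 and Unc13b lie right of 0 wherever drawn, and Unc13d lies left.

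Against the unweighted mean of the 5 types on the log scale, 6 of the 8 tested genes were called higher and 1 lower, where 36.7% of all genes were called higher and 20.0% lower. The log2 fold change was 7.81 (SE 0.25) for Sytl4, 5.35 (SE 0.60) for Sytl3, 3.81 (SE 0.30) for Unc13b and -3.76 (SE 0.54) for Unc13d. For genes without a UMI in a type, the fitted value depends on the prior count that edgeR adds. Without replicate 1 the value for Sytl4 was 9.11 and for Sytl3 7.66, and without replicate 2 it was 4.04 for Sytl3, 4.84 for Unc13b and 2.22 for Sytl1, each with no test. High values in T-cell-like barcodes have little weight in a mean of logs. Rab27b was called higher at 5.59 (SE 0.73, edgeR adjusted p = 0.000145), although its level was 9.04 ± 2.62 CPM in parathyroid barcodes and 22.1 ± 2.61 CPM in the mean of the types (SD, n = 2), and 3 of the 5 types had no UMI. Rab27a was called higher at 1.29 (SE 0.23) with 33.6 ± 1.84 CPM against 37.3 ± 3.88 CPM, and Sytl1 at 1.14 (SE 0.40) with 7.34 ± 1.05 CPM against 12.1 ± 3.64 CPM. With all other barcodes summed to 1 class, Rab27b had a log2 fold change of -0.63 (adjusted p = 0.0153) and Sytl3 lost its call (1.57, adjusted p = 0.180). That class also holds the smaller types, which the mean of the 5 types leaves out. For these 4 genes the values by type above carry the comparison. Rab3d had no call (log2 fold change -0.56, SE 0.27, adjusted p = 0.102).

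Each library was then read on its own. In parathyroid barcodes Sytl3 was lower in replicate 1 than in replicate 2, at a ratio of 0.451 (counting interval 0.417 to 0.488). Sytl4 was at 0.789 of the replicate 2 level (0.762 to 0.816). Among 5968 genes of at least 20 CPM in parathyroid barcodes, 2.35% differed by 1.5-fold or more between the libraries and 0.553% were at least that much lower in replicate 1. Sytl3 was among those lower in replicate 1 and Sytl4 was not. Thinned to 5000 UMIs per barcode, a Sytl3 UMI was found in 9.32% of 644 barcodes of replicate 1 and in 22.7% of 2203 of replicate 2. Unthinned, the shares were 51.7% and 70.9%, against none of 376 endothelial-like barcodes, which were shallower. Sytl3 was also found in most ILC2-like barcodes of each library, as given above. Sytl4 was found in 46.7% and 57.5% of thinned parathyroid barcodes. With Pth, tdTomato and Chga left out of the total, the ratios were 0.447 for Sytl3 and 0.780 for Sytl4.

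The other genes had smaller differences or went the other way. Rab27b was at 1.52 times its replicate 2 level in replicate 1 (1.32 to 1.74), Sytl1 at 1.22 times (1.05 to 1.43), Unc13b at 1.11 times (1.05 to 1.18) and Rab27a at 1.08 times (1.00 to 1.16). In lymphoid types Sytl3 ran opposite to parathyroid barcodes: the ratio of replicate 1 to replicate 2 was 3.88 (2.07 to 7.81) in T-cell-like and 1.99 (1.35 to 2.91) in ILC2-like barcodes. The ILC2-like class differed in endothelial markers between the libraries, as given above, and the part of this in its ratio was not tested. Markers of T cells summed to 0.660 CPM in parathyroid barcodes of replicate 1 (7 of 7 with a UMI) and 0.392 CPM in those of replicate 2 (6 of 7). Those of NK cells summed to 0.231 CPM (4 of 7) and 0.0280 CPM (2 of 7), and those of ILC2 to 3.96 CPM (5 of 6) and 4.95 CPM (6 of 6). Most of the ILC2 sum was 1 gene, Hs3st1, at 2.94 and 4.01 CPM. Fibroblast markers summed to 16.8 and 122 CPM (7 of 7 in each) and macrophage markers to 5.94 and 32.4 CPM (7 of 7 in each), and their part in the Sytl3 ratio was not tested. Those 2 types had under 2 CPM of Sytl3. With 1 library per pool, pool, age range, chimerism and library cannot be told apart.

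**Figure D4:**
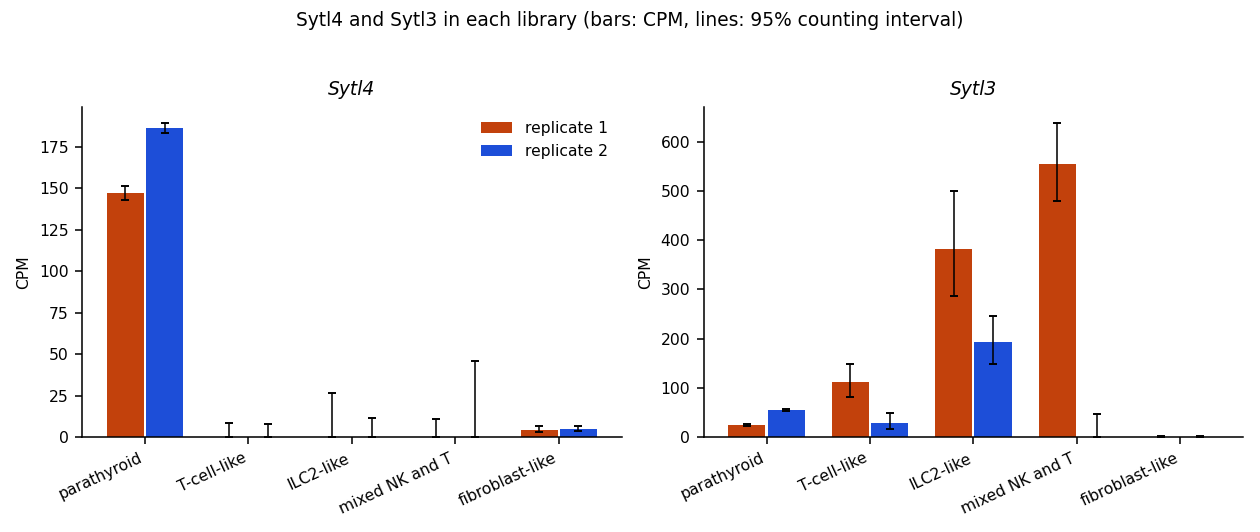
CPM of Sytl4 (left) and Sytl3 (right) in replicate 1 and replicate 2 for 5 cell types, parathyroid first, with 95% counting intervals as lines. Sytl4 is high in parathyroid barcodes of both libraries, and Sytl3 is lower in replicate 1 than in replicate 2 there but higher in replicate 1 in the lymphoid types. The ILC2-like and mixed NK and T classes differed in markers between the libraries.

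Within parathyroid barcodes the counts per barcode were low. Sytl4 had a median of 5 UMIs in both libraries, with highest values of 67 in replicate 1 and 34 in replicate 2. Sytl3 and Unc13b had medians of 1 in both, and Rab27a of 1 in replicate 1 and 0 in replicate 2. Rab27a reached 28 UMIs in 1 barcode of replicate 1 and 15 in 1 of replicate 2. After thinning, the variance over the mean was 1.50 and 1.16 for Rab27a, 1.29 and 1.27 for Sytl4, and 0.999 and 1.09 for Sytl3, where 1 is the value of pure counting. Sytl4 was seen in 33.7% of thinned barcodes with Rab27a and 48.8% of those without it in replicate 1, and in 52.9% and 58.2% in replicate 2. For Sytl3 and Unc13b in replicate 2, Sytl3 was seen in 27.8% of barcodes with Unc13b and 21.6% of those without. In replicate 1 the order was reversed, at 8.09% and 9.65%. Sytl3 and Sytl4 were seen together in 4.50% of thinned barcodes of replicate 1 and 13.9% of those of replicate 2. Independent detection would give 4.35% and 13.1%. Barcodes of a library are not replicates, and these shares are given without a test.

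Parathyroid barcodes were also split by Pth share into 3 groups of near-equal size within each library, with Pth left out of the counts. The median Pth share was 11.6%, 14.2% and 16.9% in the low, middle and high group of replicate 1, and 13.2%, 15.8% and 18.6% in those of replicate 2. Unc13b had 47.5 CPM in the high-Pth and 63.7 CPM in the low-Pth group of replicate 1, and 43.1 and 59.1 CPM in those of replicate 2. The log2 fold change was -0.36 (SE 0.055, edgeR adjusted p = 0.00111). Rab27a had 34.4 CPM in the high-Pth and 45.4 CPM in the low-Pth group of replicate 1, and 34.9 and 44.4 CPM in replicate 2 (log2 fold change -0.28, SE 0.074, adjusted p = 0.0208). These 2 of 7 tested genes were called lower and none higher, where 12.5% of 14558 genes were called lower and 13.3% higher. Both calls were lost without the library block (adjusted p = 0.345 for Unc13b and 0.359 for Rab27a). Sytl4 had no call at 159 and 174 CPM in the high-Pth and low-Pth group of replicate 1 and 203 and 231 CPM in those of replicate 2 (log2 fold change -0.08, SE 0.035, adjusted p = 0.130). Sytl3 had none either, at 30.7 and 28.6 CPM and 65.1 and 70.2 CPM (log2 fold change 0.03, adjusted p = 0.876). Median depth was 36550 UMIs in the high-Pth and 37450 in the low-Pth group of replicate 1, and 30280 and 31010 in replicate 2.

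**Figure D5:**
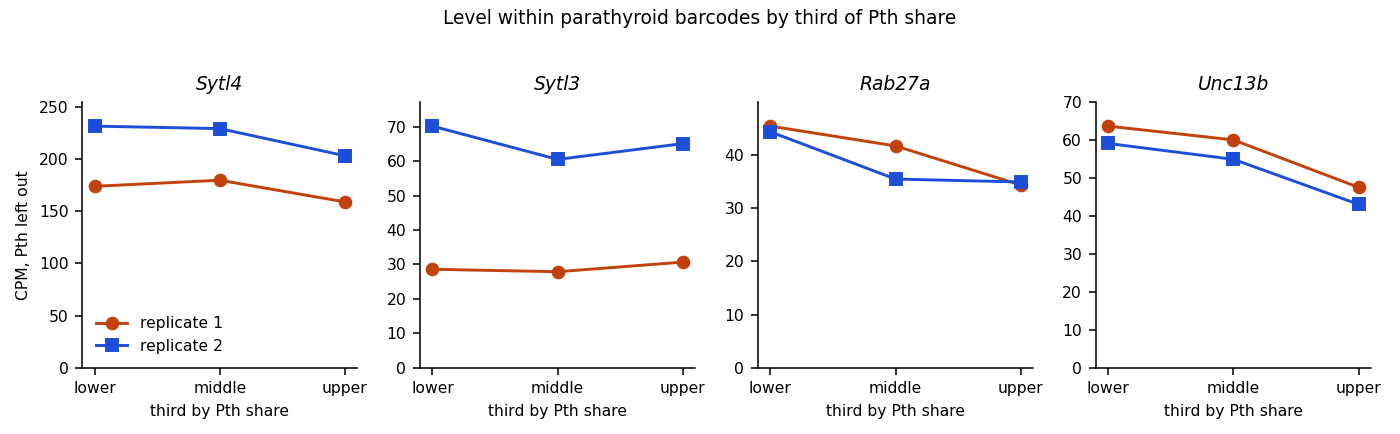
CPM without Pth of 4 genes in parathyroid barcodes split by Pth share into a low, a middle and a high group, with 1 line per library. Unc13b and Rab27a are lower in the high-Pth than in the low-Pth group in both libraries, and the Sytl3 lines stay apart by library in all 3 groups.

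Values on both sides of the 5% limit of the parathyroid class were close. Sytl4 was at 215 CPM in the 8 barcodes with 5 to 7% Pth and at 228 CPM in the 9 with 3 to 5%, from 16 and 19 UMIs. Unc13b was at 108 (46.5 to 212) and 96.1 CPM (41.5 to 189) there, and Sytl3 at 53.8 and 48.0 CPM from 4 UMIs each. Both groups were shallow, with medians of 8297 and 9127 UMIs and of 10.2% and 10.1% mitochondrial UMIs. Barcodes with 10% Pth or more had medians of 31734 UMIs and 3.34%, and Unc13b at 45.6 CPM. The likeness of the 2 groups is therefore no check of the limit. Among barcodes with 0.3 to 1% Pth, Sytl4 was at 27.5 CPM from 23 UMIs. This group was not limited to the named types and could include barcodes of an unnamed cluster, described below, that was left out of the comparisons by type.

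The wider release machinery was described with 7 lists of 110 genes, of which 78 passed the count filter in the comparison with the mean of the types. Over the lists 22 genes were called higher and 19 lower, and the median log2 fold change was 0.10, against 0.19 for all 13308 genes. Of all genes 36.7% were called higher and 20.0% lower. A call against the mean of the types need not hold against each type. With DESeq2's size factors in place of TMM the median of all genes was 0.06, so that small differences depend on the scaling. Among other Rab effectors 2 of 6 tested genes were higher and 1 lower (all genes: 36.7% and 20.0%). Rims2, an active-zone scaffold that binds Rab3, had 110 ± 5.81 CPM in parathyroid barcodes and 3.09 ± 1.68 CPM in the mean of the types (SD, n = 2). Exph5 (Slac2-b), a Rab27 effector, had 16.8 ± 3.68 CPM in parathyroid barcodes against 0.209 ± 0.0675 CPM (edgeR adjusted p = 1.09e-06). Myo5a, the myosin that Rab27a recruits to melanosomes through melanophilin, was lower at 3.94 ± 0.761 CPM in parathyroid barcodes against 74.0 ± 16.0 CPM. Rph3al had 1.77 CPM in parathyroid barcodes and 4.51 CPM in the types, with no call.

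Of the priming list, 5 of 10 tested genes were higher and 1 lower (all genes: 36.7% and 20.0%). Stxbp4 had 77.0 ± 8.40 CPM in parathyroid barcodes against 11.4 ± 1.16 CPM, and Stxbp2 (Munc18-b) 31.7 ± 0.542 CPM against 18.9 ± 5.38 CPM. Macrophage-like and dendritic-cell-like barcodes had Stxbp2 at 31.8 and 36.0 CPM, not below parathyroid barcodes. Its call rests on the mean of logs, with 1.30 CPM in fibroblast-like and 2.47 CPM in endothelial-like barcodes. Stxbp3 (Munc18-c) was lower at 24.7 ± 4.78 CPM in parathyroid barcodes against 87.1 ± 4.89 CPM. Of 7 tested synaptotagmins, the calcium sensors of fusion and their relatives, 4 were higher and 1 lower (all genes: 36.7% and 20.0%). Syt17 had 16.6 ± 1.48 CPM in parathyroid barcodes against 0.241 ± 0.182 CPM and Syt5 7.51 ± 1.52 CPM against 0.175 ± 0.00956 CPM. Syt11 was lower at 4.51 ± 0.256 CPM in parathyroid barcodes against 10.9 ± 0.231 CPM. Syt1, a sensor of neurons, had no call at 0.191 CPM in parathyroid barcodes and 6.25 CPM in the types.

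SNARE proteins, which drive fusion itself, had 6 of 19 tested genes higher and 5 lower (all genes: 36.7% and 20.0%). Snap47 had 38.5 ± 0.481 CPM in parathyroid barcodes against 13.5 ± 2.20 CPM and Vamp2 67.0 ± 0.131 CPM against 28.5 ± 2.27 CPM. Stx11, a syntaxin of cytotoxic lymphocytes, was lower at 0.159 ± 0.131 CPM in parathyroid barcodes against 33.1 ± 9.91 CPM (edgeR adjusted p = 3.29e-08), and Snap23 was lower at 27.4 ± 1.84 CPM in parathyroid barcodes against 66.1 ± 16.1 CPM. Vamp4 had no call at 35.2 CPM in parathyroid barcodes and 55.0 CPM in the types. Of secretory Rab and Ral GTPases 1 of 12 was higher and 4 were lower (all genes: 36.7% and 20.0%). Rab8b had 28.5 ± 4.84 CPM in parathyroid barcodes against 338 ± 74.1 CPM and Rab32 0.790 ± 0.0898 CPM against 12.8 ± 0.194 CPM. The call for Rab3a (14.2 ± 0.939 CPM in parathyroid barcodes against 12.7 ± 0.0476 CPM) rests on the mean of logs, and Rab2a had no call at 356 CPM in parathyroid barcodes and 322 CPM in the types.

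Regulators of Rab proteins had 3 of 15 tested genes higher and 5 lower (all genes: 36.7% and 20.0%). Rabggtb, a subunit of the enzyme that prenylates Rab proteins, had 46.3 ± 2.57 CPM in parathyroid barcodes against 20.7 ± 0.840 CPM, and Rab3gap1 75.6 ± 2.62 CPM against 56.1 ± 1.66 CPM. T-cell-like barcodes had more Rab3gap1 than parathyroid barcodes, at 91.3 CPM. Tbc1d10c had 0.319 ± 0.0158 CPM in parathyroid barcodes against 29.1 ± 0.508 CPM and Rabif 6.06 ± 1.42 CPM against 15.8 ± 2.72 CPM. The Tbc1d10c mean of the types came mostly from T-cell-like barcodes at 132 CPM, and endothelial-like barcodes had 0.236 CPM. Gdi2 had no call at 161 CPM in parathyroid barcodes and 220 CPM in the types. Of the 9 exocyst subunits, which tether vesicles, 1 was higher and 2 lower (all genes: 36.7% and 20.0%). Exoc7 had 37.6 ± 2.73 CPM in parathyroid barcodes against 19.8 ± 0.0536 CPM. Exoc6 had 18.01 ± 2.26 CPM in parathyroid barcodes against 42.0 ± 0.719 CPM and Exoc5 54.8 ± 4.53 CPM against 81.0 ± 5.55 CPM, and Exoc4 had no call at 190 CPM in parathyroid barcodes and 234 CPM in the types.

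Likeness in pattern was measured with Pearson's r of log2(CPM + 1) over 22 sums of 11 cell types in 2 libraries, among 12007 genes. The sums of a library share its depth and its mice, and the values are a description. Most like Sytl4 were Ccdc39 (r = 0.949), Glb1l2 (0.939) and Nol4 (0.931), each with its highest mean in parathyroid barcodes, at 47.7, 27.3 and 18.3 CPM. Most like Unc13b were Fbxo36 (0.916), Zfp975 (0.912) and Rab40b (0.900). Most like Sytl3 were Abhd2 (0.895), Fndc9 (0.831) and Faah (0.824), highest in ILC2-like barcodes. Among the genes most like Rab27b were Kdm4d (0.948) and Skap1 (0.945), and Skap1 encodes a signalling adaptor of T cells. Unc13d was most like Arhgap4 (0.929), Traf3ip3 (0.924) and Selplg (0.923). For Sytl1 the genes were Gstp3 (0.875), Tmem154 (0.862) and Klhl12 (0.843), and for Sytl2 Cysltr2 (0.867), Kpna1 (0.833) and Tesc (0.824). For Rab27a they were Rasa2 (0.807), Tmem154 (0.789) and Cdk13 (0.782), and for Rab3d they included Kdm4a (0.761) and Elmod2 (0.725).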

How the data were processed

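Single-cell RNA of 2 libraries was measured with a 3' droplet kit. The authors deposited UMI counts per gene and barcode, made with Cell Ranger 7.0.0 on mm10 per the submitters' processing notes. The step that chose cell barcodes is not described in these sources. Replicate 1 had 41517620 UMIs in 1406 barcodes, and replicate 2 had 88283761 in 3518.

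Barcodes were kept from 500 genes upward, under 15% mitochondrial and under 5% haemoglobin UMIs, and Scrublet removed 23 and 6 predicted doublets (1.64% and 0.171%, at score limits of 0.188 and 0.477). The second rate is low, and the labels state that doublets were also discriminated by flow cytometry. Barcodes under 1% Pth were clustered with scanpy 1.11.5 (2000 variable genes, 30 principal components, 15 neighbours, Leiden resolution 1), without 265 genes that were members, list genes, markers or reporters. Clusters were named from 143 markers of 24 types, by a scoring rule with at least 3 detected markers. The dendritic-cell-like class joins 2 clusters, with 35 and 43 barcodes in replicates 1 and 2 and with 11 and 5, of which the smaller rests on 3 detected markers.

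UMI counts were summed per type and library and tested with edgeR 4.0.16 in R 4.3.3 (TMM, filterByExpr, quasi-likelihood, library as a block, Benjamini-Hochberg, threshold 0.05). The libraries are separate pools of mice. With library as a block, p-values rest on how far the differences between classes varied between the 2 pools. Per the labels each library is 1 pool of mice, which its cell types share, and library was therefore the block. The fits were tested on simulated counts.

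All 10 members were named. Of each list up to 2 genes called higher and 2 lower of smallest p and the uncalled gene of highest parathyroid CPM were named, and for likeness the 3 genes of highest r. A few genes that this rule names are not reported here. The members and lists were chosen with earlier results of these data known. Alternatives covered the normalization, the test (DESeq2 1.42.0), the filters, the Pth limits, the typing and each library.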

Additional observations from a re-analysis of the deposited data

Results flagged for a closer look

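Several signals lay in barcodes outside the classes compared. The 36 barcodes with 1 to 5% Pth, at a median of 8113 UMIs, had Sytl4 at 148 CPM (109 to 197), Sytl3 at 34.7 CPM (17.3 to 62.2), Unc13b at 44.2 CPM (24.2 to 74.2) and Rab27a at 28.4 CPM (13.0 to 54.0). These values overlap those of parathyroid barcodes. An unnamed cluster of 14 barcodes under 1% Pth held all 5 parathyroid markers, at a median of 4642 UMIs and 10.1% mitochondrial UMIs. It had Sytl4 at 223 CPM (125 to 367), Unc13b at 178 CPM (92.1 to 311) and Rab27a at 59.4 CPM (16.2 to 152), from 15, 12 and 4 UMIs. Its Unc13b interval lies above the 49.3 and 44.3 CPM of parathyroid barcodes. The 78 barcodes with at least 5% Pth that the filters left out had Sytl4 at 153 CPM (132 to 176), Unc13b at 33.8 CPM (24.5 to 45.6), Sytl3 at 28.3 CPM (19.8 to 39.2) and Rab27a at 16.5 CPM (10.2 to 25.3). The 86 left-out barcodes under 1% Pth, at a median of 17.0% mitochondrial UMIs, had Sytl4 at 96.0 CPM (72.9 to 124) from 58 UMIs in 23 barcodes and Sytl3 at 39.7 CPM (25.5 to 59.1) from 24 UMIs in 8. They had Rab27b at 76.2 CPM (55.8 to 102) from 46 UMIs in 4 barcodes and Unc13b at 29.8 CPM (17.7 to 47.1). That Sytl4 level is above every value of the named types other than parathyroid. All values given here were above the limit that a count of 0 allows, and none was tested on its own. With no barcode filters, the fit against the mean of the types gave Sytl4 a log2 fold change of 7.50 (edgeR adjusted p = 5.87e-11).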

How the results depend on the processing

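The comparison with the mean of the types gave 1 gene called lower (Unc13d), and 2 with DESeq2's size factors (also Rab3d), 2 with DESeq2's own test (also Sytl2) and 4 with all other barcodes summed to 1 class (also Sytl2, Rab3d and Rab27b). Under that last setting Rab27b reversed to a log2 fold change of -0.63. That class also holds the smaller types and the unnamed cluster, which the mean of the types leaves out, and types weigh there by their UMIs. ILC2-like barcodes alone held 232 Rab27b UMIs, against 117 in the 5 large types. Of all genes called, 64.7% were higher, against 47.8% with 1 class, 47.6% with DESeq2's test, 73.5% without the count filter and 73.2% with types of at least 5 barcodes in each library, a setting chosen after seeing the data. Sytl1 lost its call under 4 settings (adjusted p from 0.0582 to 0.140), and Sytl4 and Unc13b kept theirs under every tested setting. The count lower in the high-Pth group was 0 without the replicate block, against 2 with it. Depth limits the small types: 3 counts were 6.94 and 6.60 CPM in T-cell-like barcodes and 96.5 and 68.8 CPM in lymphatic endothelial-like ones.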
